A study of Mus musculus with 29 samples.

Results

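The 8 genes Vegfc, Figf, Flt4, Prox1, Lyve1, Pdpn, Reln and Mmrn1, which are used to recognise lymphatic vessels or the growth signal that forms them, were followed in mouse hearts through the induction of heart failure (HF) and the recovery after it. They were chosen by symbol, and all 8 were found among the 29,955 genes of the expression table. Poly(A) RNA of C57BL6 mouse hearts was sequenced, and expression is given in FPKM, fragments scaled to transcript length and to the number of mapped fragments, which allows levels of different genes to be compared per length. The mice, male by the methods of the study, entered at 3 months of age. HF was induced over 5 weeks with 0.3 mg/ml of L-NAME, which blocks nitric oxide synthesis, and 1% NaCl in the drinking water, with angiotensin II at 0.7 mg/kg/day from an osmotic pump that was implanted after the first week. The HF groups are HF week 3 (2 libraries) and HF week 5 (3 libraries). All agents then ended and the hearts recovered without them: Recovery week 7 (2 libraries), Recovery week 9 (2), Recovery week 11 (3), Recovery week 13 (2) and Recovery week 19 (5), which the labels count as recovery weeks 2, 4, 6, 8 and 14. Control week 19 (5 libraries) comprises hearts of control mice matched in age to Recovery week 19, and they are therefore older than the HF hearts to which they are compared here. Controls of week 5 were not used, because 5 columns carry their name and 4 samples are so labelled. The labels name whole heart or whole ventricle, whereas the methods of the study name apical portions.

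Lymphatic vessels drain fluid, proteins and immune cells from the heart wall. VEGF-C and VEGF-D, the products of Vegfc and Figf (an older symbol of Vegfd), bind VEGFR-3, the product of Flt4, on lymphatic endothelial cells and drive their growth. PROX1 is the transcription factor that gives and keeps lymphatic identity. LYVE1, a receptor for hyaluronan, and podoplanin, a surface glycoprotein encoded by Pdpn, are the usual surface markers of these vessels, while reelin and multimerin 1 are proteins that lymphatic endothelial cells secrete. Several of the genes have other sources in the heart: Lyve1 is expressed by resident macrophages, Pdpn by mesothelial cells and activated fibroblasts, Prox1 by cardiomyocytes and Mmrn1 by megakaryocytes. In whole tissue, fewer cells of a type and less RNA per cell cannot be told apart.

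Relative to Control week 19, Vegfc and Pdpn were higher in HF week 5 and lower again in Recovery week 19, whereas Flt4, Reln and Mmrn1 differed little in mean between HF week 5 and control. The regions upstream of Vegfc and Pdpn are shown because these were the members that passed the test described below in both comparisons. Within HF week 5 the 2 genes did not run alike. Library 1 had 11.4 FPKM of Pdpn and 3.34 of Vegfc, and library 2 had 4.96 and 8.37. For each, the 250 bases before the start of the gene in RefSeq are given 5′ to 3′ on the strand of the gene (build GRCm38, another than the authors' build), with capitals at motif matches: the GC box GGGCGG, written CCGCCC where it lies on the other strand, in Vegfc and the E-box CACGTG in Pdpn. The Vegfc window is chr8:54077282-54077531 on the plus strand, and the Pdpn window is chr4:143299565-143299814 on the minus strand.
Vegfc: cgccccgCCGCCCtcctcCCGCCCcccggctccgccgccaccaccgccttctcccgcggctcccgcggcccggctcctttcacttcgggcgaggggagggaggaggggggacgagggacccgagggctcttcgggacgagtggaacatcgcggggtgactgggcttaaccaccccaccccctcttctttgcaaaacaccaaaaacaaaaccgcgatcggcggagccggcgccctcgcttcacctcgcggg
Pdpn: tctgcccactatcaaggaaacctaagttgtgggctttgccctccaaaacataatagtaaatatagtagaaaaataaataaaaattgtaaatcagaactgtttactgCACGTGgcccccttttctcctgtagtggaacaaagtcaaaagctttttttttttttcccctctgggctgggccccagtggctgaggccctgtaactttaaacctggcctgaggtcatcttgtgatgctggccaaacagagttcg

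The 2 windows were unlike in composition: 71.6% of the Vegfc bases and 43.2% of the Pdpn bases were G or C, against a median of 52.4% over 32,851 such windows. The Vegfc window held 2 GC boxes and the Pdpn window none, and 32.7% of all windows held at least 1 on either strand. The Pdpn window held 1 E-box, which was present in 6.02% of windows and not in that of Vegfc. The letters of an AP-1 site (TGANTCA, in 6.75% of windows) and of a TATA box (TATAAA, in 12.4%) were in neither window. These matches describe the letters of the windows alone.

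Averaged over the 24 libraries, Lyve1 had the highest level of the 8 genes with 8.73 FPKM, followed by Pdpn (5.15), Flt4 (4.19), Vegfc (4.15), Reln (2.23), Mmrn1 (1.77), Figf (1.75) and Prox1 (1.21). These levels lay between the 50.2nd and the 77.2nd percentile of genes above 0, and the ranges over libraries of genes next to each other in this order overlapped. All 8 passed the filter of a mean of at least 0.5 FPKM, as did 12,759 genes of the table. They were tested as log2(FPKM + 0.5) with limma in a single model of the 8 group means, two-sided, with Benjamini-Hochberg adjustment over all genes tested. A gene was called at an adjusted p under 0.05, and on this scale the fold changes of low genes come out too small. The columns do not tie a library to a labelled animal, so that p-values measure the spread between libraries. HF week 3 library 1 stood apart: it had 12,816 genes above 0, against 16,339 to 18,091 in the others, and its low values lacked the steps of 1 fragment from which the relative depth of the other 23 libraries was read (0.744 to 1.40). Figf and Mmrn1 were listed at 0 in this library, as was the macrophage gene Cd68.

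**Figure D1:**
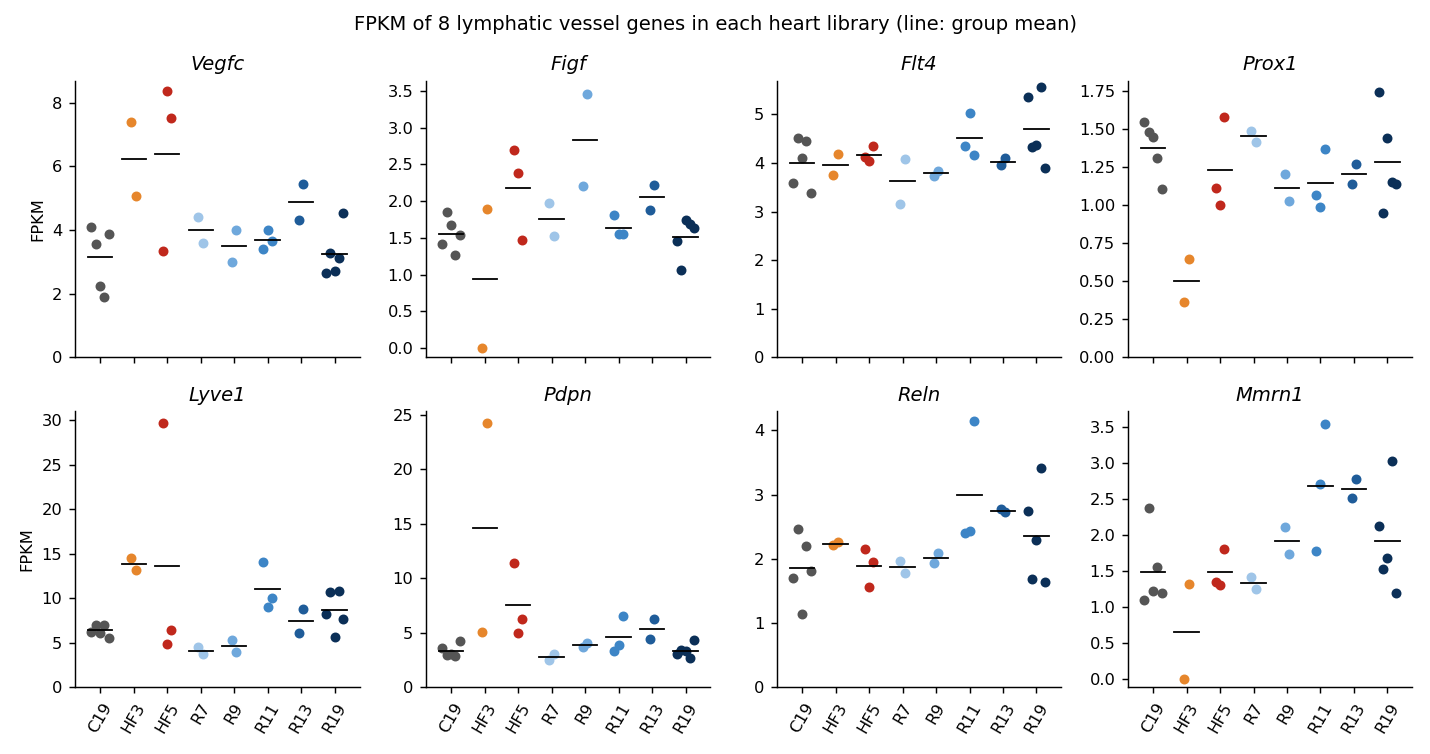
FPKM of the 8 lymphatic vessel genes in each of the 24 libraries, by group (C, Control; HF, heart failure; R, Recovery; the number is the week), 1 point per library and a line at the group mean. Vegfc and Pdpn stand high in the HF groups, Prox1 is lowest in the 2 HF week 3 libraries, and Lyve1 reaches 29.7 FPKM in 1 HF week 5 library.

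Vegfc, the main ligand of VEGFR-3, was measured at 4.09, 3.56, 2.25, 1.91 and 3.88 FPKM in the 5 Control week 19 libraries. The HF week 5 libraries had 3.34, 8.37 and 7.52 FPKM, so that libraries 2 and 3 lay above every control library and library 1 lay among them. The group means were 3.14 ± 0.993 (SD, n = 5) in Control week 19 and 6.41 ± 2.69 (SD, n = 3) in HF week 5. The log2 fold change was 0.88 (SE 0.25, adjusted p = 0.0167 from limma). Without HF week 5 library 2 it was 0.66 (adjusted p = 0.0962 from limma), without library 3 it was 0.73 (adjusted p = 0.0837), and with these groups alone in the model the adjusted p was 0.0743.

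In Recovery week 19 the Vegfc values of 2.65, 3.28, 2.71, 3.10 and 4.54 FPKM were back in the range of the controls, apart from the highest. Vegfc was lower there than in HF week 5, the log2 fold change being -0.81 (SE 0.25, limma adjusted p = 0.0259). That fall was not called without HF week 5 library 2 (-0.58, adjusted p = 0.14 from limma), without library 3 (-0.66, 0.117), or without Recovery week 19 library 1 or 3 (-0.75 and -0.76, adjusted p = 0.051 and 0.0538), and with these groups alone in the model the adjusted p was 0.0717. Against Control week 19 the log2 fold change was 0.07 (95% interval -0.39 to 0.53). The weeks between held 4.42 and 3.60 FPKM (week 7), 3.00 and 4.00 (week 9), 3.41, 3.99 and 3.66 (week 11), then 4.32 with 5.46 (week 13). In order of the group means, Vegfc ran from HF week 5 through HF week 3 (7.41 and 5.06 FPKM), Recovery weeks 13, 7, 11, 9 and 19 to Control week 19, and each neighbouring pair of groups overlapped.

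Figf, the second ligand of the receptor, stood at 1.27 to 1.85 FPKM in Control week 19 and at 2.69, 2.38 and 1.47 in HF week 5. The groups overlapped, and the log2 fold change of 0.36 (SE 0.31) did not pass the test (adjusted p = 0.431 from limma). Its highest value was 3.46 FPKM in Recovery week 9, whose other library had 2.20, and the libraries of the other recovery weeks lay between 1.06 and 2.22. Against HF week 5, Recovery week 19 had a log2 fold change of -0.39 (adjusted p = 0.384 from limma), and against Control week 19 one of -0.03 (95% interval -0.60 to 0.53).

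Flt4, the receptor of both ligands, had the narrowest range of the 8 genes relative to its level. It lay between 3.37 and 4.51 FPKM in Control week 19, and its HF week 5 values of 4.13, 4.03 and 4.35 were inside that range. The log2 fold change of HF week 5 against control was 0.06, with a 95% interval of -0.20 to 0.32. Recovery week 19 had 5.37, 4.33, 4.37, 5.57 and 3.89 FPKM, with 2 libraries above every control library, and a log2 fold change of 0.20 against control (95% interval -0.02 to 0.43, adjusted p = 1 from limma). The group means ran from 3.62 FPKM in Recovery week 7 to 4.70 in Recovery week 19.

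Prox1, the transcription factor, was the lowest of the 8 genes. In Control week 19 it was measured at 1.55, 1.48, 1.44, 1.31 and 1.10 FPKM, and in HF week 5 at 1.11, 0.997 and 1.58, which overlap. The log2 fold change was -0.13 (95% interval -0.46 to 0.20). In the 2 HF week 3 libraries it was 0.359 and 0.646 FPKM, lower than in all other 22 libraries. The cardiomyocyte gene Tnnt2 (cardiac troponin T) was also lowest in these 2 libraries, at 4391 and 5662 FPKM against 6211 to 9465 in the others. The sum of the 10 listed cardiomyocyte genes went the other way, at 75070 and 354900 FPKM against 20850 to 25320 in Control week 19. In those controls Myh6, Myl2, Actc1 and Mb are listed at 0. The part of cardiomyocytes in the Prox1 values was not tested. Recovery groups had means of 1.11 to 1.45 FPKM, and the log2 fold change of Recovery week 19 was 0.04 against HF week 5 and -0.08 against control, with adjusted p-values of 0.871 and 1 from limma.

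Lyve1, the hyaluronan receptor, was measured at 6.29, 7.04, 6.15, 6.98 and 5.59 FPKM in Control week 19. HF week 3 had 14.5 and 13.2 FPKM, and HF week 5 had 29.7, 4.87 and 6.42. A single library, HF week 5 library 1, thus held the highest value of the gene, while the other two were below or within the range of the controls. The log2 fold change of HF week 5 against control was 0.59 (SE 0.36, adjusted p = 0.247 from limma), and it turned to -0.18 without library 1 and was called at 1.07 without library 2 (adjusted p = 0.0378 from limma).

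During recovery Lyve1 stood at 4.51 and 3.71 FPKM at week 7 and at 5.36 and 3.96 at week 9, below every control library. At week 11 the libraries had 14.0, 9.09 and 10.0 FPKM, above every control library, followed by 6.17 and 8.80 at week 13. The 5 libraries of Recovery week 19 held 8.22, 10.7, 5.69, 10.9 and 7.73 FPKM and overlapped with the controls. The difference of week 11 from weeks 7 and 9, a comparison added after the values were seen, had a log2 fold change of 1.23 (95% interval 0.44 to 2.02) with an unadjusted p of 0.00407 and an adjusted p of 0.322 from limma. At that comparison 0% of the 12,759 genes and 0 of the 8 members were called. Lyve1 and Reln had an unadjusted p under 0.05 from limma, and the share of all genes at that threshold is not given. With these groups alone in the model the adjusted p of Lyve1 was 0.0477. The summed macrophage markers were 173 and 179.2 FPKM at week 7, 197.7 and 331.8 at week 9, and 355.7 to 489 at week 11. At week 13 they were 430.8 and 544.5 FPKM, while Lyve1 was lower than in each week 11 library. The summed fibroblast markers were 275.6 to 404.9 FPKM at weeks 7 and 9, 418.3 to 687.1 at week 11, and 395.4 and 511.6 at week 13. C1qa and C1qb made up most of the macrophage sums, with means of 190 and 140 FPKM at week 11 and 99.6 and 67.2 at weeks 7 and 9. The scavenger receptor Cd163, a marker of resident macrophages, had 1.61 to 2.30 FPKM at weeks 7 and 9 and 5.04, 3.10 and 3.26 at week 11. All 14 listed macrophage genes had a higher mean at week 11 than at weeks 7 and 9. The differences were smallest for Timd4 (0.508 against 0.437 FPKM) and Mertk (1.26 against 1.16), which overlapped. The part of these cell types in the Lyve1 values was not tested.

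Pdpn, the gene of podoplanin, was measured at 3.60, 3.01, 3.03, 2.85 and 4.26 FPKM in Control week 19. All 3 HF week 5 libraries were above them, with 11.4, 4.96 and 6.26 FPKM. The group means were 3.35 ± 0.581 (SD, n = 5) and 7.55 ± 3.42 (SD, n = 3), and the log2 fold change was 0.99 (SE 0.33, adjusted p = 0.036 from limma). The call was lost without HF week 5 library 1 (0.67, adjusted p = 0.253 from limma) or library 3 (1.08, 0.0577), and without Control week 19 library 1, 2, 3 or 4, where the log2 fold change was 0.95 to 1.02 and the adjusted p 0.0532 to 0.071. Without the filter on low values the adjusted p was 0.0642.

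The Recovery week 19 libraries had 3.09, 3.48, 3.30, 2.66 and 4.31 FPKM of Pdpn, all below the lowest HF week 5 library. The log2 fold change against HF week 5 was -0.99 (SE 0.33, adjusted p = 0.0358 from limma), and it was not called without HF week 5 library 1 (-0.67, 0.245), library 3 (-1.07, 0.0581), or Recovery week 19 library 1, 2, 3 or 4 (adjusted p = 0.0561 to 0.0725 from limma). Without the filter on low values its adjusted p was 0.0652. Against Control week 19 it was 0.01 (95% interval -0.60 to 0.61). Between these times Pdpn had 2.48 and 3.10 FPKM (week 7), 3.75 and 4.07 (week 9), 3.37, 3.94 and 6.51 (week 11), then 4.45 with 6.31 (week 13). The highest value of the study was 24.2 FPKM in HF week 3 library 2, and library 1 of that week had 5.10.

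Reln and Mmrn1, the genes of the secreted proteins, showed no difference of means between HF week 5 and control beyond their spread. Reln stood at 1.14 to 2.46 FPKM in Control week 19 and at 2.16, 1.56 and 1.96 in HF week 5, a log2 fold change of 0.04 (95% interval -0.40 to 0.47). Mmrn1 stood at 1.09 to 2.37 FPKM in the controls and at 1.34, 1.30 and 1.80 in HF week 5, a log2 fold change of 0.02 (95% interval -0.63 to 0.67). The signs of these small differences and of that of Flt4 turned when libraries were centred on their median or quantile normalized.

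The highest value of each gene was in Recovery week 11, which is recovery week 6 of the labels. At week 11 Reln had 2.40, 2.43 and 4.14 FPKM and Mmrn1 1.78, 2.70 and 3.54, and at week 13 Reln had 2.77 and 2.73 and Mmrn1 2.52 and 2.77. For both genes the week 13 libraries were above every control library, and those of week 11 overlapped with them. At week 13 the groups did not overlap for 5 of the 8 members, the others being Vegfc, Figf and Pdpn, and 0 of the 8 were called. The comparison sets 2 libraries against 5, and the share of all genes without overlap in it is not given. The count of 5 is therefore not set against a background and is not read as a result about these genes. The summed platelet and megakaryocyte markers were 72.63 to 120.8 FPKM at week 11 and 90.34 and 144 at week 13, against 33.69 to 79.75 in control. Pf4 made up most of these sums, with means of 87.8 FPKM at week 11, 101.9 at week 13 and 51.6 in control. At week 11 the means of Gp9 (1.04 FPKM) and Gp1ba (0.470) were below control (1.37 and 0.528), and those of the other listed genes were above it. At week 13 the means of all listed genes were above control. The part of these markers in the Mmrn1 values was not tested. For week 11 against Control week 19, a comparison added after the values were seen, the log2 fold change was 0.56 for Reln (unadjusted p = 0.0147, adjusted p = 0.403 from limma). For Mmrn1 it was 0.67 (unadjusted p = 0.0434, adjusted p = 0.572 from limma). In that comparison 0.149% of all genes were called, and 0 of the 8 members. By Recovery week 19 Reln had 2.74, 1.69, 2.29, 3.41 and 1.64 FPKM and Mmrn1 2.13, 1.53, 1.68, 3.03 and 1.20. The log2 fold changes against control were 0.26 and 0.27, and against HF week 5 they were 0.23 and 0.25, and none was called.

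Outside HF week 3, Reln and Mmrn1 were also the pair that varied most alike from library to library. Over those 22 libraries Pearson's r of log2(FPKM + 0.5) was 0.869 and Spearman's rho 0.862, and r was 0.856 without the 2 libraries farthest from the median of Reln and 0.80 with the group means removed. Over all 24 libraries r was 0.539, with Mmrn1 listed at 0 in HF week 3 library 1, and was below that of Figf and Mmrn1 (0.652) and of Prox1 and Mmrn1 (0.57). Each was the gene most like the other among all genes tested over the 22 libraries, ahead of Sgce for Reln (0.697) and Svep1 for Mmrn1 (0.726). Of the 28 pairs among the 8 genes, the next highest r over the 22 libraries was 0.532, for Flt4 and Mmrn1. The points share libraries and groups, so that these values describe these libraries.

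**Figure D2:**
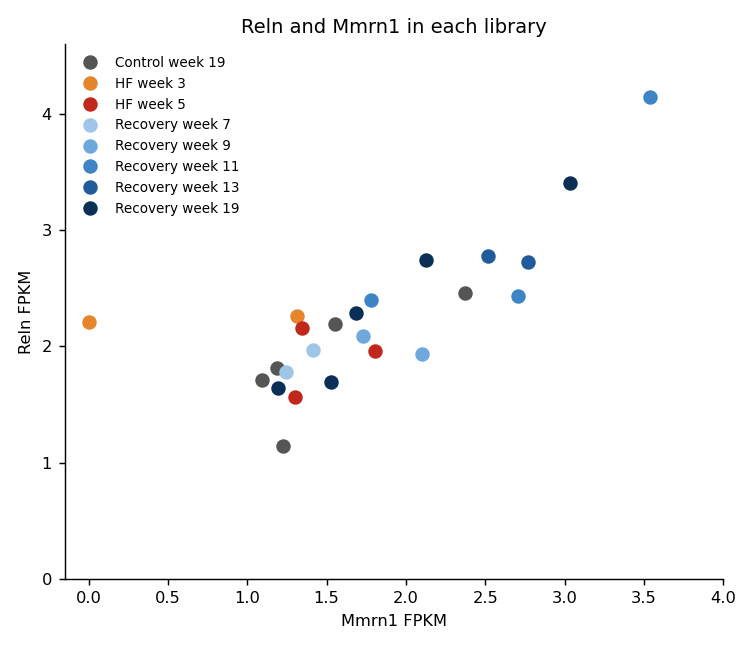
FPKM of Reln (vertical axis) against FPKM of Mmrn1 (horizontal axis), 1 point per library, coloured by group. The points lie along a common line with r = 0.869 over the 22 libraries outside HF week 3, and 1 HF week 3 library is listed at 0 for Mmrn1 with 2.21 FPKM of Reln.

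The other members had other nearest genes over the 24 libraries. Those of Pdpn were Rarres2 (r = 0.947), Cyb5r3 (0.938) and Dap (0.922). Those of Lyve1 were Ccl6 (0.845), Entpd1 (0.843) and Fam49a (0.842), of which Ccl6 encodes a chemokine of myeloid cells. Vegfc was nearest to Apol10b (0.855), BC024571 (0.824) and 6230427J02Rik (0.821), and Flt4 to 9830001H06Rik (0.802), Tcf7l1 (0.676) and Zfyve1 (0.674). Prox1 was nearest to Scyl2 (0.876), Osbpl8 (0.868) and Fyco1 (0.844), and Figf to Leng9 (0.901), Bfar (0.898) and Car11 (0.895). For Reln over the 24 libraries they were Arl13b (0.65), Sgce (0.649) and Kbtbd11 (0.611), and for Mmrn1 AK040741 (0.871), Hnrnpk (0.868) and Ap3b1 (0.858). Over the 22 libraries without HF week 3 the genes nearest to Pdpn were Prdx4 (0.938), Gm2a (0.929) and Rpn2 (0.911), and the nearest to Lyve1 was Fam49a (0.902).

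The question of the study was which expression changes of HF return to the level of controls in recovery. Of the 8 genes, 2 were called in HF week 5 against Control week 19, both higher, where 24.0% of all genes tested were called and 11.6% were higher. All libraries of HF week 5 lay on one side of all controls for 1 of the 8, Pdpn, and for 29.5% of all genes. The median log2 fold change of the 8 was 0.21, against 0.04 over all genes. In Recovery week 19 against HF week 5 the same 2 genes, Vegfc and Pdpn, were called lower, where 24.2% of all genes were called and 12.0% were lower. The groups did not overlap for 1 of the 8, Pdpn again, and for 26.7% of all genes, and the median log2 fold change was -0.09 against -0.04. Both comparisons share the HF week 5 libraries. The shares of members called are close to those of the table. In Recovery week 19 against Control week 19, limma called 0 of the 8 genes, with 0 at an unadjusted p under 0.05, where 0.0235% of all genes were called, and the median log2 fold change of the 8 was 0.14.

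**Figure D3:**
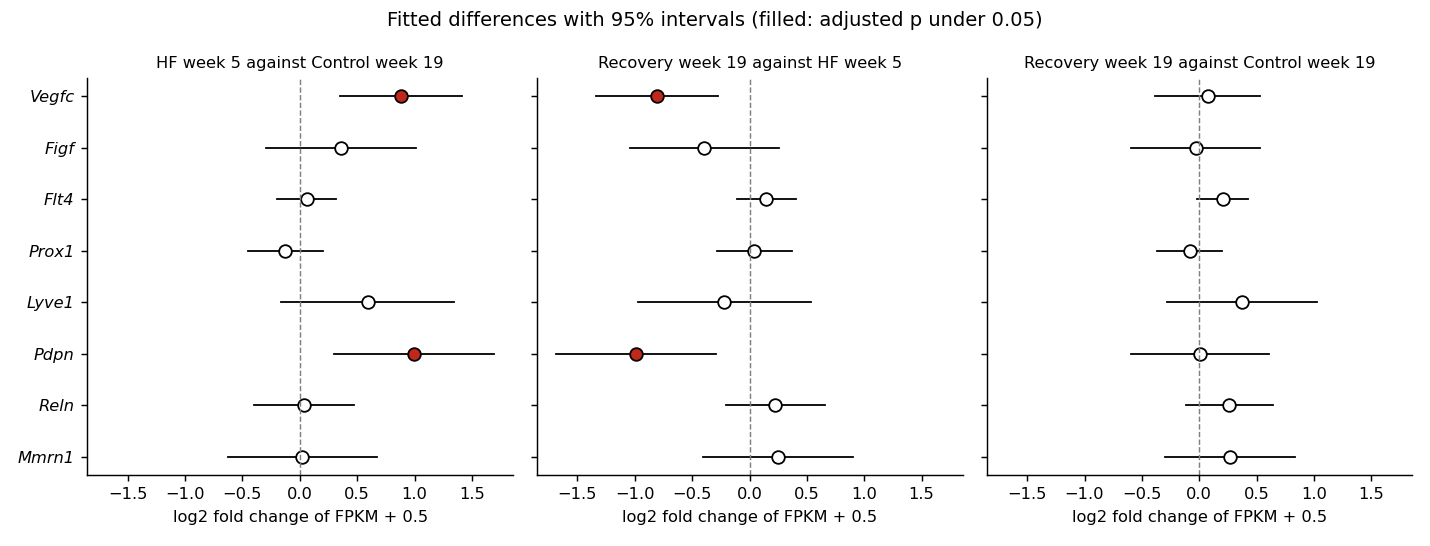
Log2 fold changes of FPKM + 0.5 with 95% intervals from limma for the 8 genes in 3 comparisons; filled points have an adjusted p under 0.05. Vegfc and Pdpn lie to the right of 0 in HF week 5 against Control week 19, to the left in Recovery week 19 against HF week 5, and near 0 in Recovery week 19 against Control week 19.

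Recovery weeks 7 to 13, taken as the mean of their 4 groups (9 libraries), were set against both ends. Against HF week 5, limma called 0 of the 8 genes, where 22.1% of all genes were called, both at an adjusted p under 0.05. Pdpn and Vegfc had an unadjusted p under 0.05 from limma, and the share of all genes at that threshold is not given. The log2 fold change of Pdpn was -0.76 (SE 0.31, adjusted p = 0.0805 from limma) and that of Vegfc -0.54 (SE 0.23, adjusted p = 0.103). Lyve1 had -0.62 (adjusted p = 0.186 from limma), which became 0.15 without HF week 5 library 1 and was called at -1.09 without library 2 (adjusted p = 0.028). Pdpn was called when the HF week 3 libraries were left out of the model (adjusted p = 0.00888) and when these groups alone were fitted (0.04), and Vegfc without HF week 5 library 1 (-0.92, 0.0151). Against Control week 19, 0 of the 8 genes were called by limma, and 0 had an unadjusted p under 0.05, where 0.0705% of all genes were called.

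The HF week 3 hearts were sampled 2 weeks into the angiotensin II infusion. Pdpn, Lyve1 and Vegfc were higher and Prox1, Figf and Mmrn1 lower than in Control week 19, which is 6 of the 8 genes where 50.7% of all genes were called. The log2 fold changes were 1.62 for Pdpn (SE 0.38, adjusted p = 0.00176 from limma), 1.06 for Lyve1 (SE 0.41, adjusted p = 0.04) and 0.91 for Vegfc (SE 0.29, adjusted p = 0.0136). They were -0.91 for Prox1 (SE 0.18, adjusted p = 0.000425 from limma), -0.90 for Figf (SE 0.36, adjusted p = 0.042) and -1.03 for Mmrn1 (SE 0.36, adjusted p = 0.0226). Flt4 and Reln had -0.01 and 0.24. Without library 1, the library that stood apart, Prox1 (-0.71, adjusted p = 0.0193 from limma) and Pdpn (2.69, 1.97e-05) were called and 4 of the 6 were not: Vegfc had 0.66 (0.195), Lyve1 0.99 (0.187), Mmrn1 -0.10 (0.856) and Figf 0.23 (0.521). Without library 2 Pdpn had 0.55 (adjusted p = 0.158 from limma) and Lyve1 1.12 (0.0857), and neither was called. Figf was also not called without Control week 19 library 1, 2, 3 or 5 (-0.93 to -0.85, adjusted p = 0.0532 to 0.0712 from limma), nor Lyve1 without library 1, 3, 4 or 5 of that group (1.01 to 1.09, adjusted p = 0.0501 to 0.0612). With 1 library left in the group, that library is taken to vary like the other groups.

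Between HF week 3 and HF week 5, a comparison added after the values were seen, Prox1 was higher at week 5 the log2 fold change being 0.79 (SE 0.20, limma adjusted p = 0.014), and Figf with 1.26 (SE 0.39, adjusted p = 0.0303). These were 2 of the 8 genes where 21.4% of all genes were called. Without HF week 3 library 1 neither was called, at 0.58 (adjusted p = 0.296 from limma) and 0.13 (0.935). With these groups alone in the model the adjusted p was 0.533 for both, and after quantile normalization the log2 fold changes were 0.34 for Prox1 (adjusted p = 0.209 from limma) and 0.72 for Figf (0.0593).

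Markers of other cell types were examined in the same libraries. Of 8 mesothelial and epicardial genes tested, 5 were called higher in HF week 5, among them mesothelin (Msln), and their sum over the 10 listed genes was 98.4, 38.6 and 16.1 FPKM in HF week 5 libraries 1 to 3, 89.96 and 279.8 in HF week 3, and 5.34 to 7.90 in Control week 19. At Recovery week 19 it was 4.38 to 6.52 FPKM. Msln itself was 32.7, 10.5 and 2.28 FPKM in HF week 5, 23.0 and 96.6 in HF week 3, and at most 0.328 in the controls. Pdpn was thus highest in the library of each HF week in which these markers were highest, and the lowest Vegfc value of HF week 5 was in its library 1, where they were highest. Elsewhere the order differed: HF week 5 library 2 (sum 38.6) had 4.96 FPKM of Pdpn, and library 3 (sum 16.1) had 6.26. Recovery week 11 library 3 had 6.51 FPKM of Pdpn at a mesothelial sum of 5.11 and a fibroblast sum of 687.1. Recovery week 13 library 2 had 6.31 FPKM at sums of 10.2 and 511.6. The part of mesothelial and fibroblast markers in the values of Pdpn, Vegfc and Lyve1 was not tested.

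HF week 5 library 1 also held 81870 FPKM of 6 atrial genes in sum, against 2522 and 2231 in libraries 2 and 3, 7765 and 14100 in HF week 3 and 90.02 to 350.1 in the controls. Nppa, which ventricular muscle also expresses in failure, made up 2099.84 and 2213.98 FPKM of the sums of libraries 2 and 3 and is listed at 0 in both HF week 3 libraries. The atrial gene Myl7 had 18388, 152 and 6.16 FPKM in HF week 5 libraries 1 to 3, 1805 and 5773 in HF week 3, and at most 1.12 in control. All 5 atrial genes tested were called higher in HF week 5, where 11.6% of all genes were. Of 10 fibroblast genes, 7 were called higher, with sums of 368 to 723.4 FPKM in HF week 5 and 258.4 to 367 in control. Of 14 macrophage genes, 2 were called higher (Ccr2 and Lgals3), with sums of 549.3, 241.2 and 342.5 FPKM in HF week 5 libraries 1 to 3 and 203.9 to 323.7 in control. Lyve1 was highest where this sum was highest, but Recovery week 13 library 2 had a sum of 544.5 FPKM with 8.80 FPKM of Lyve1. Of 14 blood and pan-endothelial genes, 5 were called higher. The sum over the 14 was 2875 to 4145 FPKM in HF week 5 against 2009 to 3956 in control. Most of that sum was Fabp4, which was not called and had means of 2546 FPKM in HF week 5 and 1953 in control. Of the 9 genes not called, some had negative log2 fold changes, down to -0.33 for Kdr. This list includes genes shared with lymphatic endothelium, such as Tek, and so does not separate blood from lymphatic vessels. Flt4 stayed inside the control range in HF week 5. Without HF week 5 library 1, 5 mesothelial, 5 atrial, 4 blood and pan-endothelial, 2 fibroblast and 0 macrophage genes were called higher. The share of all genes in that fit is not given, so these counts are not set against a background. Without libraries 1 and 2 the median log2 fold changes were 1.35 for the atrial, 1.27 for the mesothelial and 0.77 for the fibroblast genes. They were 0.50 for the blood and pan-endothelial and 0.37 for the macrophage genes, against 0.02 over all genes. Of 6 platelet and megakaryocyte genes, limma called 0, with sums of 65.28 to 127.9 FPKM in HF week 5 and 33.69 to 79.75 in control. Of the 8 lung epithelial genes, 6 had a mean under 0.5 FPKM, and the list did not move as a whole. Hopx, which made up most of its sum, was at 112.7 to 173.8 FPKM in HF week 5 against 254.5 to 340.1 in control. It was called lower, with a log2 fold change of -1.04 (adjusted p = 8.36e-05 from limma). The surfactant genes averaged at most 0.0304 FPKM in HF week 5. Other genes of the list were raised in some HF libraries. Scgb1a1 had 48.1 FPKM in HF week 5 library 1 and 3.67 in HF week 3 library 2, and at most 0.261 in the controls. Ager had 3.65 and 0.544 FPKM in HF week 3, 1.42, 0.503 and 0.177 in HF week 5 and 0.151 to 0.319 in control. The part of these genes' source in the Pdpn values was not tested. Of the cardiomyocyte genes, which define the labelled tissue, Tnnt2 had 4391 to 9465 FPKM over the 24 libraries. The cardiomyocyte genes Myh6, Myl2, Actc1 and Mb are listed at 0 in all Control week 19 libraries, Myh6 and Mb also in all of Recovery week 19, and Myh6 in all of HF week 5.

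**Figure D4:**
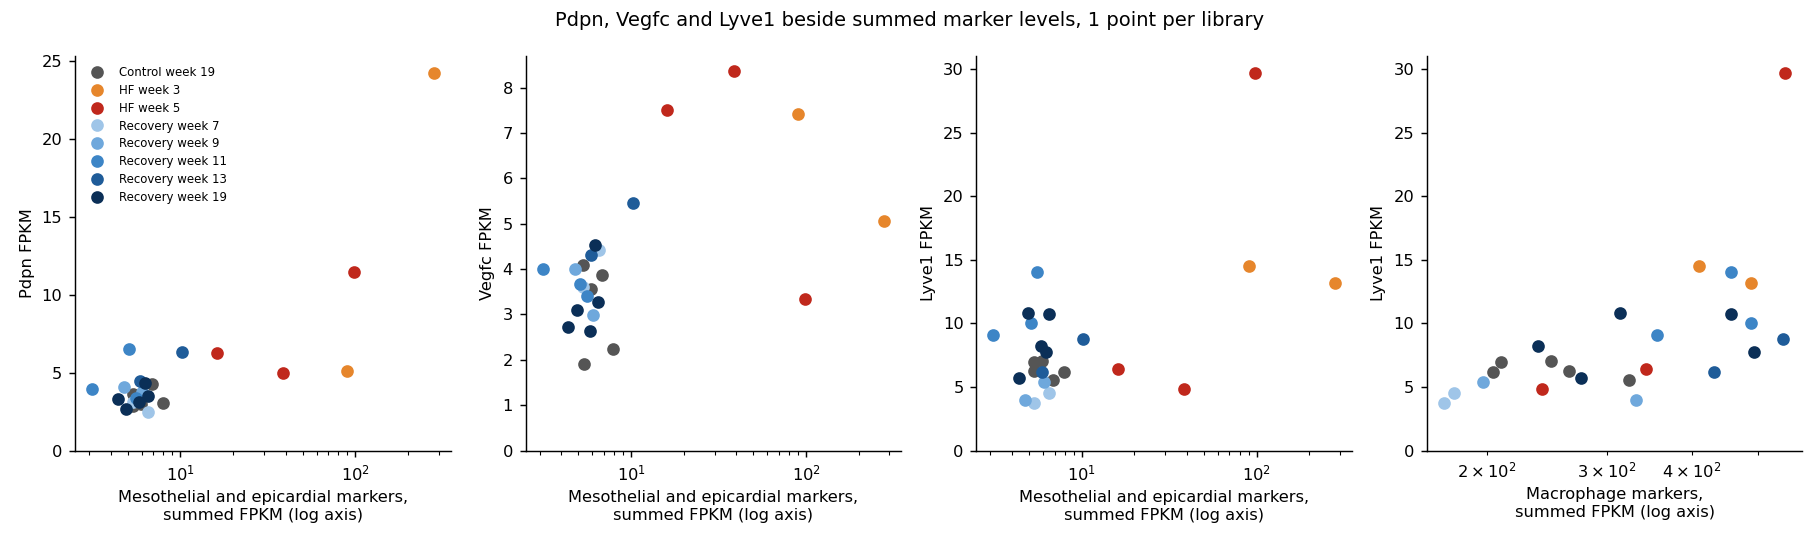
Pdpn, Vegfc and Lyve1 (FPKM) against the summed FPKM of mesothelial and epicardial markers, and Lyve1 against that of macrophage markers (horizontal log axes), 1 point per library, coloured by group. The 5 HF libraries lie to the right of the others in the mesothelial sum, at 16.1 to 279.8 FPKM. The library with 29.7 FPKM of Lyve1 has the highest macrophage sum, 549.3, and Recovery week 13 library 2, with a sum of 544.5, has 8.80 FPKM of Lyve1.

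Beyond the 8 genes, 66 genes of the lymphatic pathway were listed, of which 63 were in the table and 51 passed the filter. In HF week 5 against control, 10 of the 51 were called higher, 1 lower and 40 not, which is 21.6% against 24.0% of all genes. The median log2 fold change of the 51 was 0.18. Over all genes, 11.6% were called higher, which is the background for the counts of genes higher in the 4 lists that make up the 51. Of Recovery week 19 against HF week 5, 4 were higher, 5 lower and 42 not called (17.6%, against 24.2% of all genes). Without HF week 5 library 1 the first of these counts was 7 higher and 0 lower, and the second 2 higher and 5 lower. The share of all genes called in that fit is not given, so these counts are not set against a background. Without libraries 1 and 2 the median log2 fold change of the 51 was 0.29 in the first comparison, against 0.02 over all genes. In the second it was -0.20, against -0.03. Of the listed genes described next that were called in HF week 5, Tek and Gja4 were also called without libraries 1 and 2, and the others were not.

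Among the genes for VEGF-C maturation and the partners of its receptor, 1 of 11 was called higher in HF week 5, the coreceptor Nrp1, whose FPKM was 15.8 ± 3.68 (SD, n = 5) in Control week 19 and 23.8 ± 2.83 (SD, n = 3) in HF week 5. Its log2 fold change was 0.59 (SE 0.18, adjusted p = 0.0209 from limma) and -0.80 in Recovery week 19 against HF week 5 (SE 0.18, adjusted p = 0.00342). The rise was not called without Control week 19 library 4 or HF week 5 library 1 or 3 (0.50 to 0.64, adjusted p = 0.0547, 0.0521 and 0.093 from limma). Ccbe1, whose product is needed to activate VEGF-C, had 0.871 to 1.64 FPKM in control and 0.651 to 0.847 in HF week 5 (log2 fold change -0.42, adjusted p = 0.0578 from limma). Recovery week 19 exceeded HF week 5 in Ccbe1 (0.55, SE 0.16, adjusted p = 0.0172 from limma), but not without HF week 5 library 3 (0.48, 0.0716) or with a pseudocount of 0.1 (adjusted p = 0.0648).

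Of 12 lymphatic transcription factors, 2 were called higher in HF week 5, and both genes also act in veins or other mesenchymal tissue. Foxc1 rose from 1.05 to 1.85 FPKM in control to 3.02 to 10.2 in HF week 5, a change of 1.45 on the log2 scale (SE 0.30, limma adjusted p = 0.00218), and it fell in Recovery week 19 (-0.99, adjusted p = 0.0216), a call that was lost without HF week 5 library 1 (-0.48, 0.238) or with these groups alone in the model (adjusted p = 0.0783). Nr2f2, the venous factor COUP-TFII, rose by 0.79 on the log2 scale (SE 0.23, limma adjusted p = 0.0186), and 0.45 (adjusted p = 0.204) without HF week 5 library 1.

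Of 17 genes of lymphatic growth and valve signalling, 5 were called higher in HF week 5 and 0 lower. Tek, the angiopoietin receptor TIE2 of blood and lymphatic endothelium, had 7.76 to 11.7 FPKM in control, 13.1 to 18.6 in HF week 5 and 8.73 to 10.9 in Recovery week 19, so that HF did not overlap with either group. Its log2 fold change was 0.81 (SE 0.14, adjusted p = 0.000427 from limma) in HF week 5 and -0.71 (SE 0.14, adjusted p = 0.00116) in recovery. Efnb2, an ephrin of arteries and lymphatic valves, rose by 0.65 (SE 0.15, adjusted p = 0.00461 from limma) and had -0.65 in recovery (adjusted p = 0.00456). The connexin gene Gja4 had 0.67 (adjusted p = 0.0175 from limma) and Ramp2, a partner of the adrenomedullin receptor, 0.57 (adjusted p = 0.0145). Gja4 was not called without HF week 5 library 2 or 3 (0.60 and 0.50, adjusted p = 0.0614 and 0.106), nor Ramp2 without library 1 (0.36, 0.15).

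Of 11 surface and chemokine genes, 2 were called higher and 1 lower in HF week 5. The tetraspanin gene Cd9 rose from 26.3 to 46.7 FPKM in control to 49.8 to 105.1 in HF week 5 (1.01 on the log2 scale, SE 0.21, adjusted p = 0.00204 from limma) and fell in Recovery week 19 (-0.62, adjusted p = 0.0328). That fall was not called without HF week 5 library 1 (-0.33, adjusted p = 0.296 from limma) or 3, or Recovery week 19 library 1, 3 or 4, and was lost in 9 of 19 alternatives in all. Sphk1, a kinase that makes sphingosine 1-phosphate, had 0.65 (adjusted p = 0.0416 from limma) and 0.40 (0.304) without HF week 5 library 1. Sphk1 lost its call in 9 of 19 alternatives, among them no filter on low values (adjusted p = 0.0709 from limma), median centring (0.0622) and leaving out Control week 19 library 1, 3 or 4. Timp4, an inhibitor of metalloproteinases, was lower in HF week 5 (-0.73, adjusted p = 0.0265 from limma) and higher again in Recovery week 19 (0.88, adjusted p = 0.00938), and its fall was not called without HF week 5 library 1 (-0.70, 0.101) or 2 (-0.63, 0.0946) or Control week 19 library 4 (-0.70, 0.0532), or with these groups alone in the model (0.0953). Ccl21a, named after its values were seen, the chemokine of lymphatic endothelium that guides dendritic cells, was at most 0.297 FPKM in 23 libraries and 4.13 in Recovery week 19 library 5.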

How the data were processed

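The deposited values are FPKM, which the authors made by aligning paired-end reads to the mouse genome MGSCv37 (mm9) with TopHat and quantifying genes with Cuffdiff, 1 column per library. The annotation and any scaling between libraries are not given in the sources used here, absolute depth is unknown, and no counting error could be given. The week in a column name set its group. The 5 columns named for week 5 controls were left out, since 4 samples carry that label, and Recovery week 9 is labelled for 3 samples but held in 2 columns. Human samples were not analysed here, and Cuffdiff could not be rerun on FPKM.

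The 12,759 genes averaging 0.5 FPKM or more, of 29,955, were fitted as log2(FPKM + 0.5) with limma 3.58.1 in R 4.3.3, with group means, eBayes with trend and 16 residual degrees of freedom; p-values are two-sided with Benjamini-Hochberg adjustment over all genes. The code was tested on simulated data. The members, lists and comparisons were chosen with earlier results of these data known. Genes named are the 8 members, of each pathway list up to 4 called genes with the largest change, of each marker list up to 3, and the 3 genes with the highest Pearson r to each member. Marker lists of other cell types were also summed in FPKM per library. Cd68, C1qa, C1qb, Timd4, Mertk, Ccl21a, the lung genes and the cardiomyocyte genes listed at 0 were named after their values were seen.

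Upstream windows came from RefSeq (GRCm38), where 7 of the 8 members have one and Lyve1 has none. Windows of 250 bases were searched on both strands, and 50 transcribed bases were left out. Alternatives were pseudocounts of 0.1 and 1, other filters, unadjusted p-values, models of the compared groups alone, median centring, quantile normalization, eBayes without trend or with robust estimation, and leaving out libraries. Leaving out HF week 5 libraries 1 and 2 together was added after seeing the data. Figures were drawn with Python 3.11.15, pandas 2.3.3 and matplotlib 3.10.9.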

Additional observations from a re-analysis of the deposited data

Results flagged for a closer look

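Figf and Prox1 differed between weeks 3 and 5 of induction in a test of that difference, which depended on the processing. HF week 5 minus HF week 3 was 1.26 on the log2 scale for Figf and 0.79 for Prox1, with adjusted p-values of 0.0303 and 0.014 from limma. Prox1 was at 0.359 and 0.646 FPKM in HF week 3 and at 0.997 to 1.58 in HF week 5, without overlap, while Figf was listed at 0 and at 1.89 FPKM in HF week 3 and overlapped with its 1.47 to 2.69 in HF week 5. Without HF week 3 library 1, the values were 0.13 for Figf (adjusted p = 0.935 from limma) and 0.58 for Prox1 (adjusted p = 0.296). Figf was also not called without HF week 5 library 1 or 2 (1.12 and 1.20, adjusted p = 0.0642 and 0.0805 from limma), nor Prox1 without library 3 (0.65, adjusted p = 0.0515). With these groups alone in the model the adjusted p was 0.533 for both, and after quantile normalization Prox1 had 0.34 (adjusted p = 0.209 from limma) and Figf 0.72 (0.0593). Figf lost its call in 7 and Prox1 in 4 of 15 alternatives. This comparison was added after the values were seen. In Control week 19 and Recovery week 19, the groups large enough for a test of a library far from the others, no library stood apart in any of the 8 genes.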

How the results depend on the processing

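No paired analysis was possible because the columns carry no letters of the sample titles, and libraries of a group are numbered without a link between groups. In HF week 5 against Control week 19, 2 members were called, 1 without the filter on low values, 1 with the compared groups alone in the model, 1 without HF week 5 libraries 1 and 2, and 0 to 2 when single libraries were left out. In Recovery week 19 against HF week 5 the count of 2 became 1, 1 and 0 under the first 3 of these and 0 to 2 when single libraries were left out. In HF week 3 against Control week 19 the count of 6 became 3 with the compared groups alone, 3 after quantile normalization and 2 to 5 when single libraries were left out. In Recovery weeks 7 to 13 against HF week 5 the count of 0 became 2 on unadjusted p-values, 1 with the compared groups alone, 1 without the HF week 3 libraries and 0 to 1 when single libraries were left out. Against Control week 19, Recovery week 19 and Recovery weeks 7 to 13 had 0 members called under every alternative run. The causes of these changes were not tested, and the shares of all genes called under these alternatives are not given.

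Signs of small differences turned. In HF week 5 against Control week 19, Flt4, Reln and Mmrn1 had log2 fold changes of -0.0012, -0.0215 and -0.0364 after median centring and of -0.0321, -0.0914 and -0.12 after quantile normalization. Without HF week 5 libraries 1 and 2, Figf had -0.0527 and Prox1 0.15 there, and Figf had 0.0206, Prox1 -0.24 and Lyve1 0.37 in Recovery week 19 against HF week 5. Pdpn had -0.0188 in Recovery week 19 against Control week 19 after quantile normalization. Leaving out single libraries gave, in HF week 5 against Control week 19, -0.18 to 1.07 for Lyve1, -0.0872 to 0.14 for Reln and -0.0905 to 0.17 for Mmrn1. In Recovery week 19 against HF week 5 it gave -0.0543 to 0.18 for Prox1 and -0.70 to 0.55 for Lyve1, and against Control week 19 -0.0646 to 0.17 for Vegfc, -0.0833 to 0.0581 for Figf and -0.0771 to 0.0845 for Pdpn. In HF week 3 against Control week 19 it gave -0.077 to 0.0609 for Flt4 and -2.03 to 0.23 for Figf, and in Recovery weeks 7 to 13 against HF week 5 -1.09 to 0.15 for Lyve1. Of the 8 members and the pathway genes named, 971 recomputed log2 fold changes kept direction and side of the threshold, 103 lost a call, 11 gained one and 39 turned in sign.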
